A study of Mus musculus with 8 samples.

Results

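The cells described here are fibroblasts of the mouse cortical plate that were found with a rule on 4 matrix genes, and they are 59 of the 50254 cells kept in 7 single-cell libraries. A member was selected on a summed level of Dcn, Lum, Col1a1 and Col1a2 of at least 20 UMIs per 10000 UMIs of the cell (CP10k), with at least 2 of these genes detected. A UMI is a molecular identifier that counts 1 captured RNA molecule. The rule also set upper limits on other cell types: Vtn under 30 CP10k for pericytes, Acta2, Tagln, Myh11 and Myl9 together under 40 for smooth muscle, Cldn5, Flt1 and Pecam1 together under 20 for endothelium, and C1qa and C1qb together under 20 for microglia. Kept cells had at least 500 detected genes and less than 15% mitochondrial UMIs. Since these values chose the members, the levels of those genes are given as a description without a test.

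The series compared 2 mouse lines, each with a wild-type (WT) group of its own, at 8 weeks of age after perfusion with cold buffer. Lama4-/- mice lack laminin alpha 4 in every cell. In Tek-Cre:Lama5-/- mice (Lama5 KO below) the Cre is driven by Tek, a gene of the endothelial lineage that blood-forming cells also use, so the deletion of laminin alpha 5 is not directed at fibroblasts. Brains of 3 mice were pooled per group, and the labels give 2 samples per group. They do not say whether these samples are separate captures of that pool or separate mice, so p-values below measure only the spread between libraries, which may be technical. Both deposited Lama4-/- samples held identical values and were counted as 1 library (Lama4 KO below). Its group has no spread of its own, and no test was made for that line.

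Brain fibroblasts are rare cells that sit in the meninges, in the choroid plexus stroma and around larger vessels that dip into the cortex. They secrete fibrillar collagens and small proteoglycans, and those of the pia and the perivascular space also help to build the basement membrane between vessel and brain. Laminins are the cross-shaped trimers of that membrane, each made of an alpha, a beta and a gamma chain; alpha 4 and alpha 5 are the chains of the endothelial membrane, and alpha 1 and alpha 2 are known from the membrane made by leptomeningeal cells, mural cells and astrocytes.

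Of the members 9 and 12 came from the WT libraries of the Lama4 experiment, 22 from Lama4 KO, 4 and 1 from the WT libraries of the Lama5 experiment, and 6 and 5 from Lama5 KO. The Lama4 experiment thus gave 43 of the 59 members and the Lama5 experiment 16. Members of the Lama4 experiment were also more deeply sequenced, with a median of 12959 UMIs per cell against 4302.5. The summed UMIs of the members ran from 3747, in the WT library with a single member, to 312648 in the Lama4 KO library. No member barcode was found in more than 1 library. With the full rule, whatever is said below about the WT group of the Lama5 experiment rests on 5 cells. Where the Vtn limit is lifted, its libraries hold 8 and 10 cells.

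The label was checked with 10 fibroblast genes that the rule did not use (Pdgfra, Col3a1, Col6a3, Islr, Cdh11, Serping1, Pcolce, Mmp2, Lama1 and Fbln1). At least 3 of them were detected in 58 of the 59 members, with a median of 6. The exception was a Lama4 KO cell of 1016 UMIs with none of the 10 and with microglial genes outside the rule at 118 CP10k. A pair of further Lama4 KO members carried pericyte genes outside the rule (Rgs5, Kcnj8, Abcc9 and Higd1b) at 20 CP10k or more. Genes of some other cell types were low: all 5 ependymal genes were at 0, as were 4 of 6 neuronal genes, and the summed perivascular macrophage genes averaged 0.0710 CP10k. Other sums were higher, with means of 11.1 CP10k for pericyte genes (median 0.688) and 5.82 for microglial genes (median 3.07). Choroid plexus genes averaged 4.35 and oligodendrocyte genes 3.33. No list of perivascular fibroblast genes was used, so the members are called fibroblasts below and their place in the tissue was not tested. Of the lists for meningeal layers, 12 dural fibroblast genes, with Mgp and Fxyd5 among them, had a UMI for 9 and averaged 173 CP10k in sum over the members (median 180). In members rich in Mgp, that gene made up most of this sum. The 16 arachnoid barrier and junction genes had a UMI for 13 and averaged 52.6, but with a median of 15.5 and a highest value of 798. A few cells thus carried that mean, and Ptgds alone reached 777 CP10k in a member.

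The 4 rule genes did not have the same pattern over the members. Dcn (decorin, a small proteoglycan that binds collagen fibrils; chromosome 10, 97479609 to 97518143, GRCm38) was detected in 54 members, with a median of 27.7 CP10k and a highest value of 131. Lum (lumican, a keratan sulphate proteoglycan) was detected in 41 members. Col1a1 and Col1a2, the chains of type I collagen, were detected in 55 and 58. For comparison, 0.154% of 28500 endothelial cells had a Dcn UMI and 0.0105% a Lum UMI. Genes that the rule did not use but that stood highest against all other kept cells included Pdgfra (platelet-derived growth factor receptor alpha), Cyp1b1, Spp1 (osteopontin), Clmp, Islr, Pdgfrl, Twist1, Omd (osteomodulin), Colec12 and Col3a1. With equal weight per library, Clmp averaged 545 CPM (UMIs per 1e6 of the summed UMIs) in members and 4.36 in the other kept cells, and Col3a1 390 and 7.66. These ratios follow in part from the choice of members and were not tested.

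Distinct sets of cells were visible among the members, and since they were drawn after the values had been seen, they carry no test. The first was 19 cells with Slc47a1 (a proton-coupled exporter of organic cations), at 1.84 to 28.0 CP10k; no other member had a UMI of it. The second was 12 cells with Slc6a13 (a transporter of GABA and taurine) at 9.21 to 36.8 CP10k, against at most 0.672 in any other member. The cutoffs were 1 CP10k for Slc47a1 and 5 CP10k for Slc6a13. The remaining 28 cells reached neither, and 23 of these had Coch (cochlin, a secreted matrix protein), Moxd1 or Dpep1. The sets were spread unevenly over the experiments. All 19 Slc47a1-positive cells came from the Lama4 experiment (5 and 9 in WT, 5 in Lama4 KO), whereas 11 of the 12 Slc6a13-positive cells came from the Lama5 experiment (3 and 0 in WT, 4 and 4 in Lama5 KO). Their depth differed in the same direction, with medians of 13358 UMIs in the Slc47a1-positive, 4302.5 in the Slc6a13-positive and 11110 in the remaining cells. Experiment, pool of mice and depth cannot be told apart in this uneven spread.

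**Figure D1:**
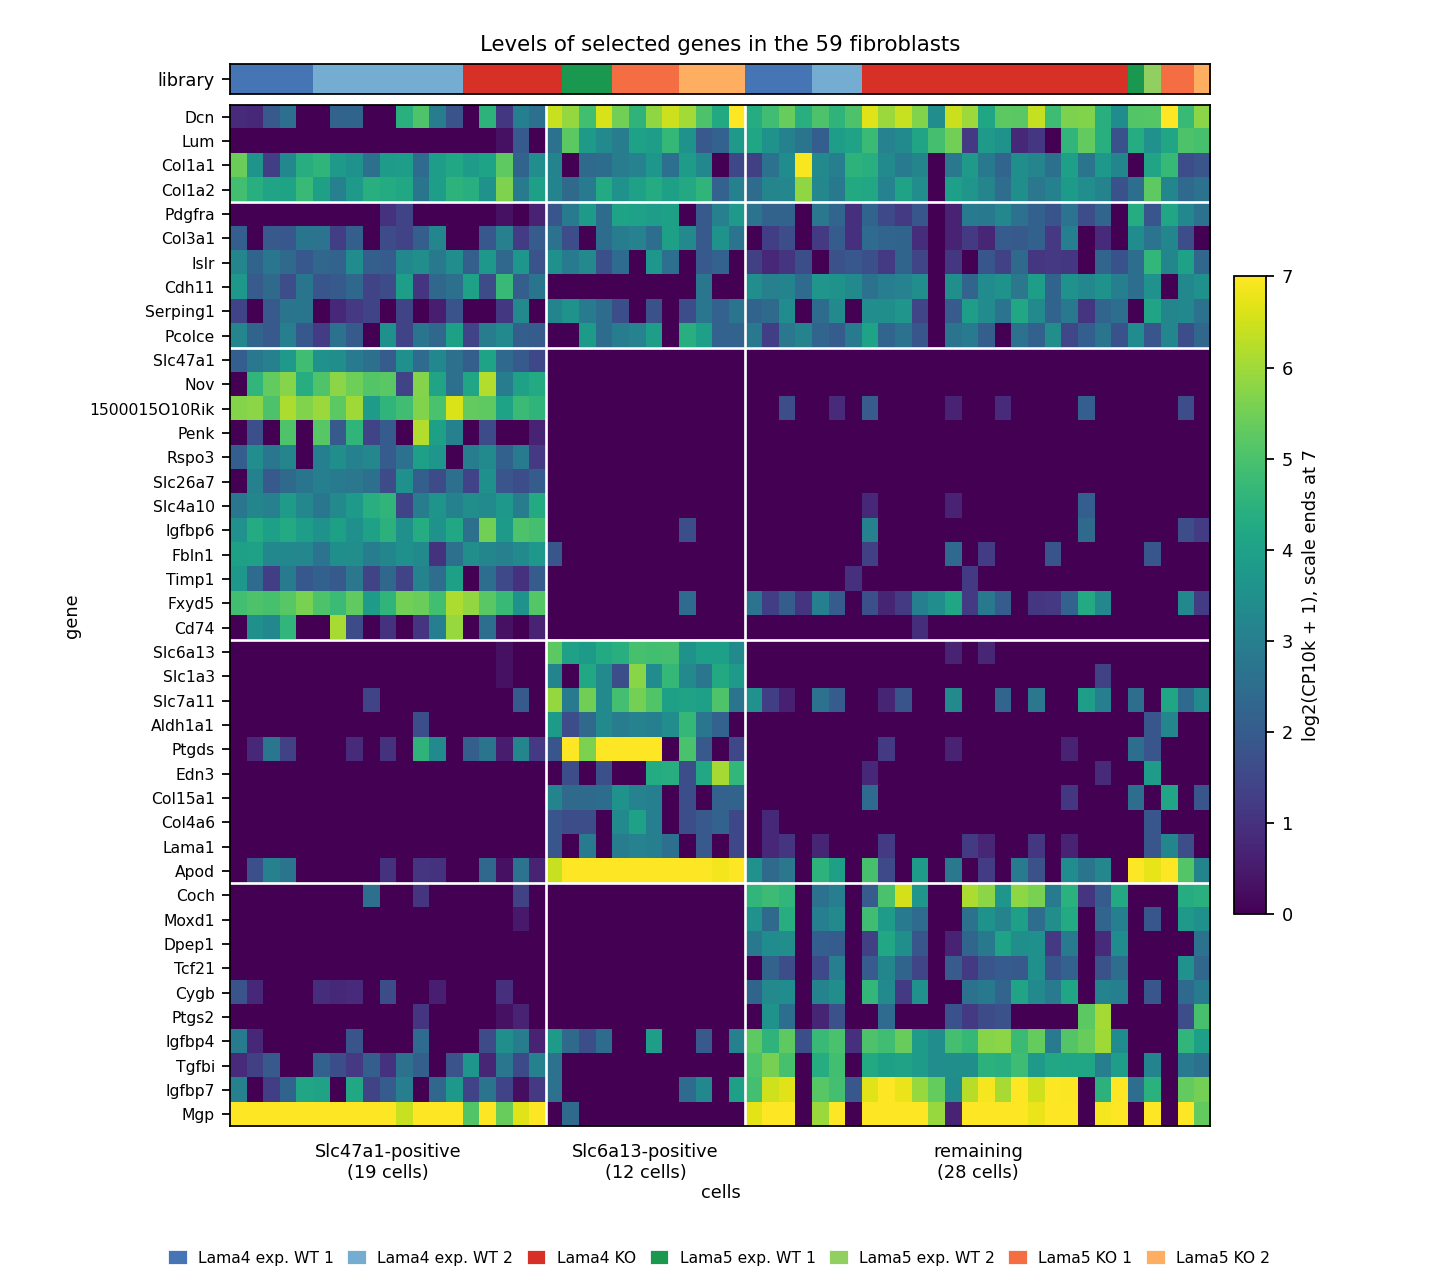
Levels of 42 genes (rows) in the 59 fibroblasts (columns), as log2(CP10k + 1), with the library of each cell in the strip above. The block of Slc47a1, Nov, 1500015O10Rik and their neighbours is filled in the 19 cells on the left, that of Slc6a13 and Ptgds in the 12 in the middle, and that of Coch, Moxd1 and Tcf21 in most of the 28 on the right.

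The Slc47a1-positive cells had little Dcn and Lum and were rich in transport and secreted signalling genes. Their mean level of Dcn was 6.01 CP10k, against 60.0 in the Slc6a13-positive and 44.8 in the remaining cells, and only 2 of the 19 had a Lum UMI. Pdgfra averaged 0.190 CP10k in them and 9.12 and 4.61 in the other sets. Type I collagen was present: Col1a1 averaged 14.6 CP10k, and all 19 cells had it. Genes high in this set and at or near 0 in the others were 1500015O10Rik (the secreted peptide augurin) at 42.0 CP10k, Nov (CCN3, a matricellular protein) at 28.2, Igfbp6 at 17.4, Penk (the precursor of enkephalins) at 10.4 and Rspo3 (a Wnt signal enhancer) at 6.40. Ion transporters belonged to the same group, with Slc4a10 (a sodium bicarbonate transporter) at 10.4 and Slc26a7 (an anion exchanger) at 4.60 CP10k. The gap junction gene Gja1 was at 10.2 CP10k, and Mgp (matrix Gla protein, an inhibitor of calcification) at 174. MHC class II genes were seen in some of these cells: Cd74, the class II invariant chain, had a UMI in 12 of the 19, at a mean of 9.76 CP10k.

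The Slc6a13-positive cells carried lipocalins, solute carriers for amino acids and basement membrane genes. Apod (apolipoprotein D) averaged 290 CP10k in them, against 1.49 in the Slc47a1-positive and 37.1 in the remaining cells. The last mean rests on 3 cells of the Lama5 experiment with 395, 352 and 107 CP10k, from 2075, 1221 and 3747 UMIs, and the other 25 remaining cells averaged 7.38 (at most 34.3). The cells of 2075 and 1221 UMIs also had the highest Pdgfra of the remaining cells, at 19.3 and 16.4 CP10k, and no Coch, Moxd1 or Dpep1. Whether they belong with the Slc6a13-positive set was not tested. Ptgds (prostaglandin D2 synthase) averaged 178, in 10 of the 12 cells; it is also an abundant free RNA, since 22.6% of endothelial cells had a UMI of it. Slc7a11 (the cystine-glutamate exchanger) stood at 25.6 CP10k, Slc1a3 (a glutamate transporter) at 14.1, and Aldh1a1 (a retinaldehyde dehydrogenase) at 7.80. Edn3 (endothelin 3) averaged 12.6 CP10k in this set and was seen in 8 of its cells. Mgp was nearly absent, at 0.360 CP10k in 1 cell of 12. Cygb and Fn1 (fibronectin) were at 0 in all 12.

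The remaining 28 cells had Dcn, Lum, Mgp and a set of secreted regulators. Coch averaged 19.7 CP10k in them, in 21 cells, against 0.410 and 0 in the other sets. Tcf21, a transcription factor of mesenchymal cells, was found in 20 of them and in no other member. Igfbp7 and Igfbp4, which bind insulin-like growth factors, averaged 65.8 and 24.9 CP10k. Vcam1 (a leukocyte adhesion molecule) stood at 11.1 and Serpine2 (a protease inhibitor) at 11.3. Mgp averaged 164 CP10k. The 5 cells without Coch, Moxd1 and Dpep1 were not alike: they included the Lama4 KO cell with microglial genes and a WT cell with 109 Col1a1 UMIs and a rule sum of 203 CP10k. That WT cell had Ibsp at 81.3 CP10k, Tnc at 27.8, and no Pdgfra or Mgp. Another of the 5, from WT replicate 2 of the Lama4 experiment, had Ibsp at 23.6, Tnc at 30.9 and no Mgp. Whether these cells are fibroblasts of the same kind was not tested.

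The level of the main genes was also followed over the libraries, as the mean over members. Lum averaged 4.52 and 2.71 CP10k in WT of the Lama4 experiment, 11.5 in Lama4 KO, 19.6 and 10.7 in WT of the Lama5 experiment and 18.2 and 12.1 in Lama5 KO. Pdgfra averaged 1.41, 1.11 and 2.60 CP10k in the Lama4 experiment and 10.9, 2.67, 14.1 and 5.65 in the Lama5 experiment, in the same order. Apod, a carrier of small hydrophobic molecules, averaged 3.97, 3.31 and 8.16 CP10k in the Lama4 experiment and 352, 107, 261 and 242 in the Lama5 experiment, so the libraries of the experiments did not overlap. Mgp was at 161, 180 and 166 CP10k in the Lama4 experiment, and at 1.08, 416, 31.8 and 7.86 in the Lama5 experiment, where the highest value is the single member of WT replicate 2. That cell also held Igfbp5, a growth factor binding protein, at 157 CP10k, while the other 3 libraries of the Lama5 experiment averaged 2.84 or less.

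Lists of matrix genes separated the sets in different ways. Fibrillar and associated collagens, 16 genes, summed to 61.7 CP10k in the Slc47a1-positive, 37.5 in the Slc6a13-positive and 38.9 in the remaining cells. Col6a1, a chain of the beaded type VI collagen, was highest in the first set at 8.81 CP10k and was seen in all 19 of its cells. The 14 proteoglycan genes summed to 32.2, 109 and 92.7 CP10k. These lists hold the 4 genes of the rule, and a cell with little Dcn and Lum became a member only through type I collagen, so this contrast is in part fixed by the choice of members. Without the rule's genes the 14 collagens left summed to 29.3, 19.1 and 14.9 CP10k and the 12 proteoglycans left to 26, 36.5 and 32.7. Elastic fibre and adhesive glycoproteins, a list that holds Mgp, were at 221 and 197 CP10k in the first and the last set and at 18.3 in the Slc6a13-positive cells. Matrix proteases and their inhibitors gave nearly the same sum in each, at 43.4, 44.0 and 45.6 CP10k, but from different genes: Timp1 averaged 4.49 CP10k in the Slc47a1-positive cells and 0 in the Slc6a13-positive ones, and Timp3 1.99 and 25.5. Receptors for laminin and collagen, among them Itgb1 and Dag1, were at 11.6, 8.73 and 16.1 CP10k. In the pericyte class they were at 31.2, from summed counts per library and not as a mean over cells.

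Basement membrane genes followed these sets closely. Summed over 23 such genes, the Slc47a1-positive cells averaged 8.99 CP10k, the Slc6a13-positive cells 55.6 and the remaining cells 26.5. Lama1 (chromosome 17, 67697259 to 67822647), the alpha chain of the pial membrane, averaged 3.35 CP10k in the Slc6a13-positive and 0.730 in the remaining cells, and was at 0 in all 19 Slc47a1-positive cells. The highest value of the remaining cells, 8.19 CP10k, was 1 UMI in a Lama5 KO cell of 1221 UMIs, which is among those with high Apod. Lama2 was found in 37 of the 59 members, at 3.20 CP10k in the remaining cells, 2.53 in the Slc6a13-positive and 0.740 in the Slc47a1-positive cells. Lamb1 stood at 0, 4.12 and 3.00 CP10k in the Slc47a1-positive, the Slc6a13-positive and the remaining cells, and Lamc1 at 0.270, 6.09 and 1.02. Col15a1 and Col4a6, collagens of basement membrane zones, were at 0 in the Slc47a1-positive cells and at 4.70 and 4.05 CP10k in the Slc6a13-positive cells. Lamb2 went the other way in part, with 2.76 CP10k in the Slc47a1-positive cells and 1.22 in the remaining ones.

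**Figure D2:**
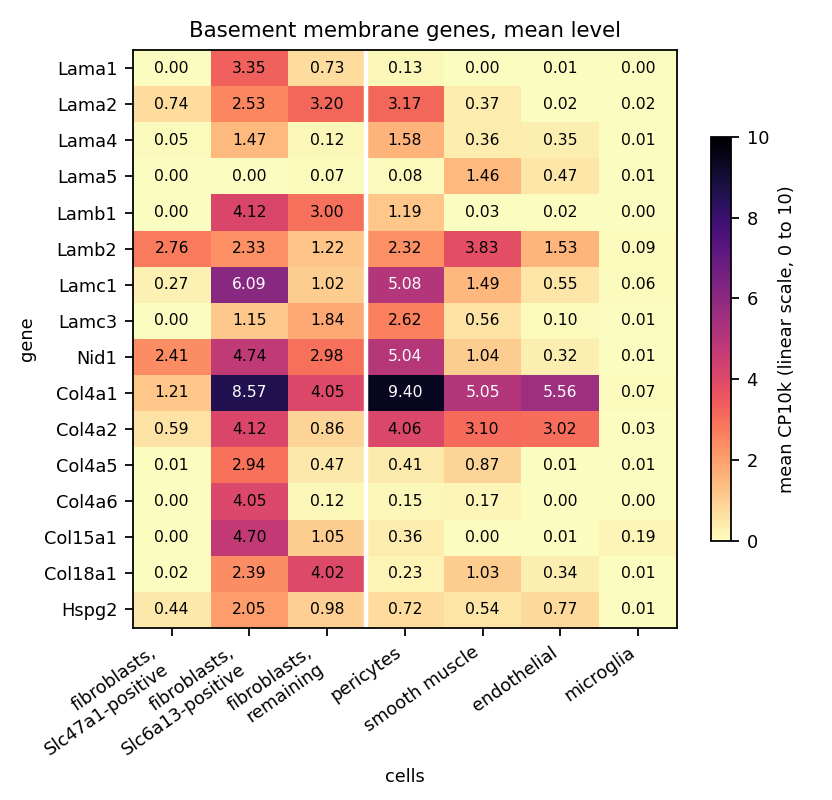
Mean level (CP10k, linear colour scale) of 16 basement membrane genes in the 3 sets of fibroblasts and in 4 other classes of kept cells. Fibroblast values are means over cells, and those of the other classes are summed counts per library averaged over libraries. Lama1 is at 3.35 in the Slc6a13-positive set and at 0.13 or less in the 4 other classes, and Lama5 is highest in smooth muscle (1.46) and at 0.07 or less in fibroblasts; the pericyte column includes 21 cells that missed the fibroblast rule by the Vtn limit alone.

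The laminin chains that the study deleted were scarce in fibroblasts. Lama4 (chromosome 10, 38965515 to 39110188) gave 3 and 3 UMIs in the WT libraries of the Lama4 experiment, 22.8 CPM over 262924 UMIs. The Lama4 KO library had 0 of 312648, which is 2.38-fold lower when 3 UMIs are counted as the floor. That fold leaves out the counting error of the 6 WT UMIs. The exact 95% interval of the ratio allows up to 71.4% of the WT level, so a smaller fold is possible. The label of that library was thus met in these cells, within what 6 UMIs can show. In the Lama5 experiment Lama4 gave 1 and 0 UMIs in WT and 1 and 3 in Lama5 KO, too few for a comparison. Lama5 (chromosome 2, 180176373 to 180225859) gave 0 UMIs in the members of all 4 libraries of the Lama5 experiment, where the upper 95% limits were 190 CPM in WT and 88.2 in KO. Its only UMIs were 2, in 2 Lama4 KO cells. For comparison, 17.8% of endothelial cells had a Lama5 UMI. The deletion of Lama5 could therefore not be checked in fibroblasts.

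The rule's limit on Vtn (vitronectin, an adhesive glycoprotein abundant in pericytes) passed through a run of like cells. It alone kept out 21 cells, 20 of them from the Lama5 experiment, with Vtn at 30.7 to 155 CP10k (median 76.3). All 21 had Slc6a13, 19 had Pdgfra and 14 had Lama1, and in 16 the pericyte genes Rgs5, Kcnj8, Abcc9 and Higd1b were all at 0. Only 1 of the 21 reached 20 CP10k of those pericyte genes. The 12 Slc6a13-positive members just inside had a median Vtn of 21.6 CP10k and a highest value of 29.7. Slc6a13 by itself does not set such cells apart, since 24.9% of the pericyte class had a UMI of it. At the other edge, 36 cells had a rule sum of 10.2 to 19.6 CP10k and met the other limits, 29 of them in the Lama4 experiment, and the lowest member stood at 20.1. Without the Vtn limit the libraries held 9, 12, 23, 8, 10, 10 and 8 cells in the order given above. Results of the Lama5 experiment are given below with and without it; that second setting was added after the values had been seen.

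**Figure D3:**
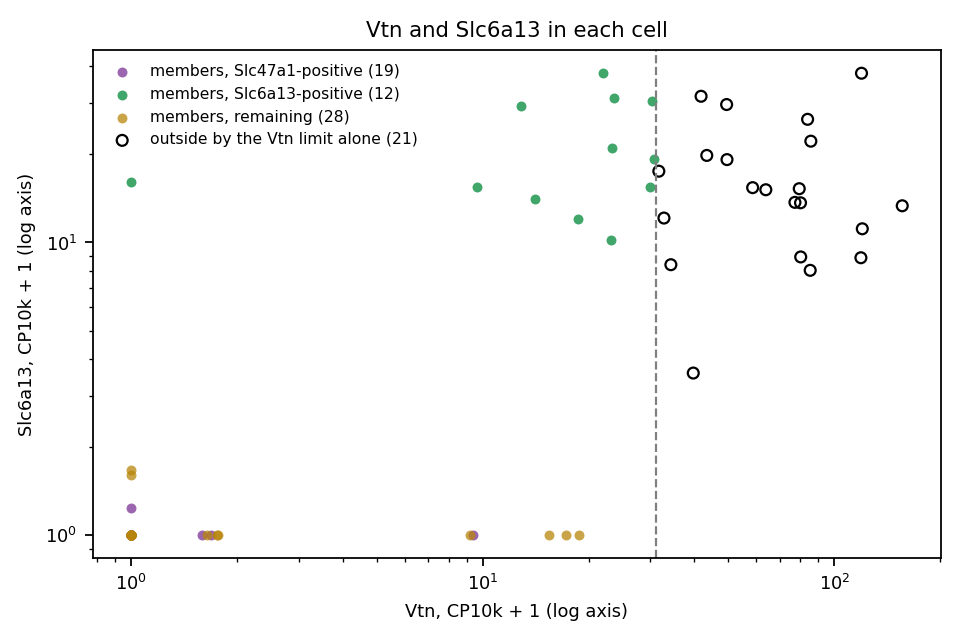
Vtn against Slc6a13 (CP10k + 1, log axes) in each member, coloured by set, and in the 21 cells outside the rule by the Vtn limit alone (open circles); the dashed line marks 30 CP10k of Vtn. Slc6a13-positive cells lie on both sides of the line, and nearly all other members lie at 1 on the Slc6a13 axis.

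The share of kept cells that were fibroblasts was 0.161% (exact 95% binomial interval 0.0736 to 0.305) and 0.225% (0.116 to 0.393) in the WT libraries of the Lama4 experiment. In the Lama4 KO library it was 0.411% (0.258 to 0.621). The KO share was above both WT shares, by 0.218 percentage points over their mean of 0.193% ± 0.0454 (SD, n = 2), but its interval overlapped those of both WT libraries. With 1 KO library there was no test. Among the sets, which were drawn after the values were seen, the KO share stood higher in the remaining cells. These made up 0.0715% (0.0195 to 0.183) and 0.0563% (0.0116 to 0.164) of kept cells in WT and 0.299% (0.171 to 0.485) in KO. The KO interval overlapped that of WT replicate 1. The remaining KO cells include the members rich in pericyte or microglial genes. The Slc47a1-positive cells were 0.0894% and 0.169% in WT and 0.0934% in KO. Another tissue part moved with the difference: choroid plexus epithelial cells (Folr1, Kl and Clic6 together at 20 CP10k or more) numbered 23 and 17 in WT and 102 in KO, and the part of this in the fibroblast share was not tested. Left without the members rich in pericyte or microglial genes, the KO library stood 0.162 points above WT.

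In the Lama5 experiment the shares were 0.0468% and 0.0117% in WT and 0.0720% and 0.0585% in Lama5 KO. Both KO shares were above both WT shares, with means of 0.0652% ± 0.00955 and 0.0292% ± 0.0248 (SD, n = 2 each). The difference of 0.0360 points gave p = 0.333 in a two-sided exact permutation test, the smallest p that 2 against 2 libraries allow. Without the Vtn limit the shares were 0.105% ± 0.0168 in WT and 0.107% ± 0.0187 in KO, a difference of 0.00135 points (exact permutation p = 0.667).

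**Figure D4:**
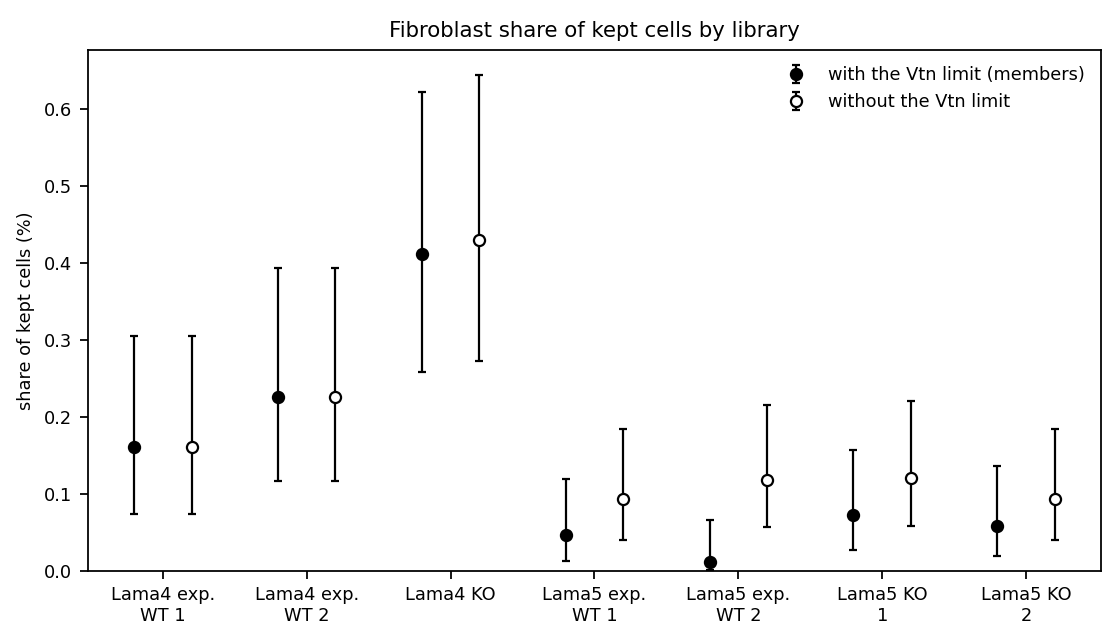
Fibroblasts as a share of kept cells (%) in the 7 libraries, with exact 95% binomial intervals, by the full rule (filled) and without the Vtn limit (open). The Lama4 KO library is highest at 0.411%, and the separation between WT and KO in the Lama5 experiment is seen in the filled points alone.

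The effect of the Lama5 deletion on gene expression was examined in summed counts of the members, 219 genes of which passed the filter on low counts. No gene passed edgeR's quasi-likelihood test at a Benjamini-Hochberg adjusted p under 0.05 (0% of genes tested), 8 had an unadjusted p under 0.05, and DESeq2 called 0. The lowest p was that of Adamts1, a secreted metalloprotease that cleaves proteoglycans (chromosome 16, 85793827 to 85803113). It had 0 and 0 UMIs in WT and 13 and 18 in Lama5 KO, so the groups did not overlap and KO was at least 4.80-fold higher against a floor of 3 UMIs (edgeR adjusted p = 0.0589). Most of the 18 came from 1 cell, which gave 80.0% of the 20 UMIs that this library had without the Vtn limit. Next were Nr2f1 (2 and 0 UMIs in WT, 13 and 16 in KO) and Selenop (3 and 1, 14 and 27), a plasma selenium carrier, neither of them past the test. The median log2 fold change over all genes tested was 0.11. Only 1 of 23 basement membrane genes had enough counts to be tested.

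Without the Vtn limit 540 genes could be tested between Lama5 KO and WT, and 4 passed, all higher in KO (0.741% of genes tested). Adamts1 had 0 and 3 UMIs in WT and 21 and 20 in KO (log2 fold change 4.15 ± 0.66 SE, edgeR adjusted p = 0.0438). Id3, a target of BMP signalling that blocks differentiation factors, stood at 745 and 782 CPM in WT and 2469 and 3420 in KO (1.93 ± 0.29, adjusted p = 0.0438). Fosb, an immediate early transcription factor, stood at 387 and 323 CPM in WT and 1263 and 1349 in KO (1.89 ± 0.32, adjusted p = 0.0468). Coch had 0 and 1 UMIs in WT and 11 and 16 in KO (adjusted p = 0.0472), but all 16 were in 1 cell, and 81.8% of the 11 in another. The call rests on 3 and 1 KO cells with a UMI, and Coch is a gene of the remaining cells. Single cells also weighed on the others: 1 cell gave 59.6% of the Id3 UMIs of KO replicate 2 and 80.0% of its Adamts1 UMIs. Without WT replicate 1 no gene passed, nor with DESeq2's size factors in edgeR; DESeq2 itself called 2 genes. With KO replicate 1 left out 12 genes passed, 8 higher and 4 lower, and without the filter on low counts 10 did, 9 higher and 1 lower.

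Immediate early and heat shock genes, which respond to stimulation and also to tissue dissociation, were examined as a list of 16, of which Hspa1a, Hspa1b and Hsp90aa1 are heat shock genes. Without the Vtn limit 14 were tested, and 8 of these had an unadjusted p under 0.05, all higher in Lama5 KO, beside 29 of all 540 genes (5.37%). The 8 were Fosb, Nr4a1, Fos, Junb, Dusp1, Jun, Zfp36 and Ier3, and only Fosb passed after adjustment. Single cells weighed on these sums. Ier3 left aside, the largest cell gave 22.6% to 58.1% of a gene's UMIs in KO replicate 1 and 41.1% to 61.4% in KO replicate 2. In WT the ranges were 32.7% to 77.8% and 21.4% to 66.7%. Among the members the list also differed by set, at 85.9 CP10k in the Slc6a13-positive and 163 in the remaining cells. The median log2 fold change of the 14 was 1.34, beside 0.00 over all genes tested. Nr4a1 had 149 and 102 CPM in WT and 890 and 565 in KO (log2 fold change 2.58 ± 0.48, edgeR adjusted p = 0.0542), and Fos had 1638 and 884 in WT and 3818 and 2980 in KO (1.45 ± 0.37, adjusted p = 0.180). Within the Vtn limit 8 of the 16 could be tested and none had an unadjusted p under 0.05. The basement membrane list showed no call: of 10 genes tested, 4 had an unadjusted p under 0.05, all lower in KO, beside 17 of all 540 genes (3.15%), and the median was -0.86. Col15a1, for example, stood at 685 and 1513 CPM in WT and 517 and 439 in KO (log2 fold change -1.22 ± 0.41, edgeR adjusted p = 0.366).

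Whether the Lama5 deletion acted differently on fibroblasts and on endothelial cells was tested as an interaction on 1077 genes. None passed (0% of genes tested by edgeR), and 55 had an unadjusted p under 0.05. Adamts1 again had the lowest p (edgeR adjusted p = 0.140). Igfbp5 came next (adjusted p = 0.140), but its 59 UMIs in WT were all in the single member of WT replicate 2. No difference between the 2 cell types in their response was thus detectable with 16 fibroblasts.

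The WT groups of both experiments were compared as a measure of how far pools and experiments differ in these cells. Of 1140 genes tested 9 passed edgeR's test (0.789%): 6 were higher in the Lama5 experiment (0.526%) and 3 lower (0.263%). The lower ones were genes of the Slc47a1-positive cells. 1500015O10Rik had 306 and 528 UMIs in the WT libraries of the Lama4 experiment and 0 and 0 in those of the Lama5 experiment, at least 20.5-fold lower. Fxyd5, a regulator of the sodium pump, was at least 14.4-fold lower and Nov at least 13.4-fold lower, each also at 0 and 0. Among the higher ones were S100a6 (log2 fold change 4.82), Flrt2 (4.16), Sparcl1 (4.01), Prelp (3.38) and Timp3 (2.73), an inhibitor of metalloproteases in the matrix. Timp3 stood at 403 and 312 CPM in the Lama4 experiment and 1724 and 5071 in the Lama5 experiment, without overlap. With the single-cell WT library left out 160 genes passed, and without WT replicate 1 of the Lama4 experiment 0 did; with WT replicate 1 of the Lama5 experiment left out the count was 64.

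Without the Vtn limit the WT groups had 21 and 18 cells, and 443 of 1769 genes passed (25%), 204 of them higher in the Lama5 experiment (11.5%) and 239 lower (13.5%). All 9 genes of the comparison within the limit were among them. Slc6a13 had 0 and 0 UMIs in the Lama4 experiment and 50 and 95 in the Lama5 experiment, at least 138-fold higher. It drew 1 of the sets after its values were seen, as did Slc47a1. The 4 and 9 cells that this setting added to the WT libraries of the Lama5 experiment all had Slc6a13. The WT libraries of the Lama4 experiment gained 0 and 0 cells. The call of Slc6a13 is thus in part fixed by these choices, and no p-value is given for it. Genes that go with either set share this limit in part, so the folds and list counts that follow are descriptions of the cells chosen. Slc22a6 and Slc22a8, transporters of organic anions, were at least 40.8-fold and 37.0-fold higher, and Aldh1a2, a retinoic acid producing enzyme, at least 31.3-fold higher. Of 14 basement membrane genes tested 11 were higher in the Lama5 experiment and none lower: Lama1 stood at 27.4 and 6.51 CPM in the Lama4 experiment and 268 and 493 in the Lama5 experiment, and Col4a1 at 137 and 137 against 774 and 2192. Of 15 solute carriers and ABC transporters tested all passed, 8 higher and 7 lower, the lower ones including Slc4a10, Slc26a7 and Slc47a1. Slc6a13 and Slc47a1 are both in this list, so its count is in part fixed by how the sets and cells were chosen. Of the 12 ribosomal protein genes 9 were lower and none higher. In the list of elastic fibre and adhesive genes 7 of 12 were lower, among them Fn1, and Postn was the 1 that was higher. The experiments differ here in which sets of fibroblasts they hold, and experiment, pool of mice and library depth cannot be told apart.

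The Lama4 KO library was set beside both WT libraries of its experiment with counting intervals alone, over 1723 genes at 100 CPM or more. The exact Poisson 95% interval lay above both WT intervals for 48 genes (2.79%) and below both for 82 (4.76%). These intervals cover counting error in summed cells and not the spread between mice or between cells. Only 5 of the 22 KO members were Slc47a1-positive, against 14 of the 21 WT members, and in the sum fewer cells of that set and less RNA per cell cannot be told apart: Nov, Slc47a1 and Fxyd5 were among the 82. Values are therefore also given within a set. Of the summed KO counts, 29.8% came from 2 Slc47a1-positive cells of 42234 and 50853 UMIs; without both cells 66 genes were higher and 94 lower. The counts also moved with the WT libraries and the rule: 132 higher and 169 lower without WT replicate 1, 84 and 142 without WT replicate 2, and 29 and 50 at 40 CP10k for the rule sum.

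Within the Slc47a1-positive cells several genes stood lower in Lama4 KO. Penk averaged 6.94 and 17.8 CP10k in the WT libraries, with a UMI in 10 of 14 cells, and 0.536 in KO, with a UMI in 2 of 5. The highest KO cell was at 2.06 and the highest WT cell at 71.5, while 4 WT cells had none, so the cells overlapped. Lgals3 (galectin 3) averaged 5.56 and 3.40 CP10k in WT and 0.185 in KO. Hhip, a decoy receptor of hedgehog proteins, averaged 1.72 and 6.46 CP10k in WT and 0.0390 in KO. Genes of MHC class II presentation stood lower too: Cd74 averaged 8.48 and 15.3 CP10k in WT and 1.13 in KO, and H2-Eb1 2.91 and 4.48 against 0.123. Higher in the KO cells of this set were Sfrp4, a secreted Wnt binding protein (1.14 and 0.445 CP10k in WT, 8.69 in KO), and Clu (clusterin), at 0.882 and 1.95 in WT and 8.70 in KO. The KO values are means over 5 cells of 1 library and have no replicate.

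Within the remaining cells Phlda1 averaged 2.18 and 1.41 CP10k in WT (7 cells) and 7.18 in KO (16 cells). Matn2 (matrilin 2) averaged 0.580 and 0.770 in WT and 3.33 in KO, and Aox3 0.372 and 1.80 in WT and 3.24 in KO. Steap4 averaged 0.927 and 1.76 CP10k in WT and 4.81 in KO, but its median in KO was 1.35, since the 2 members rich in pericyte genes stood at 26.3 and 29.7. The other 14 KO cells averaged 1.5, between the WT values. Rgs5, the gene with the highest ratio in the sum, was found in 4 of the 16 KO cells and at up to 169 CP10k; those 2 members had 169 and 47.6, and no other KO cell of this set more than 1.08. Ibsp and Tnc, at the other end, were high in 2 of the 7 WT cells, 1 in each library, and at 0 in all 16 KO cells. Those 2 WT cells had no UMI of Mgp, Phlda1, Matn2, Aox3 or Steap4. They lower the WT means of these genes, so make-up and level cannot be told apart within this set either. Ttr (transthyretin), the main product of the choroid plexus, had a UMI in all 21 KO cells of these 2 sets, at 6.50 CP10k in the Slc47a1-positive and 7.56 in the remaining cells, against 1.17 and 1.06 in WT. The KO library held 102 choroid plexus cells, 1.90% of its kept cells, and the part of their free RNA in this value was not tested.

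**Figure D5:**
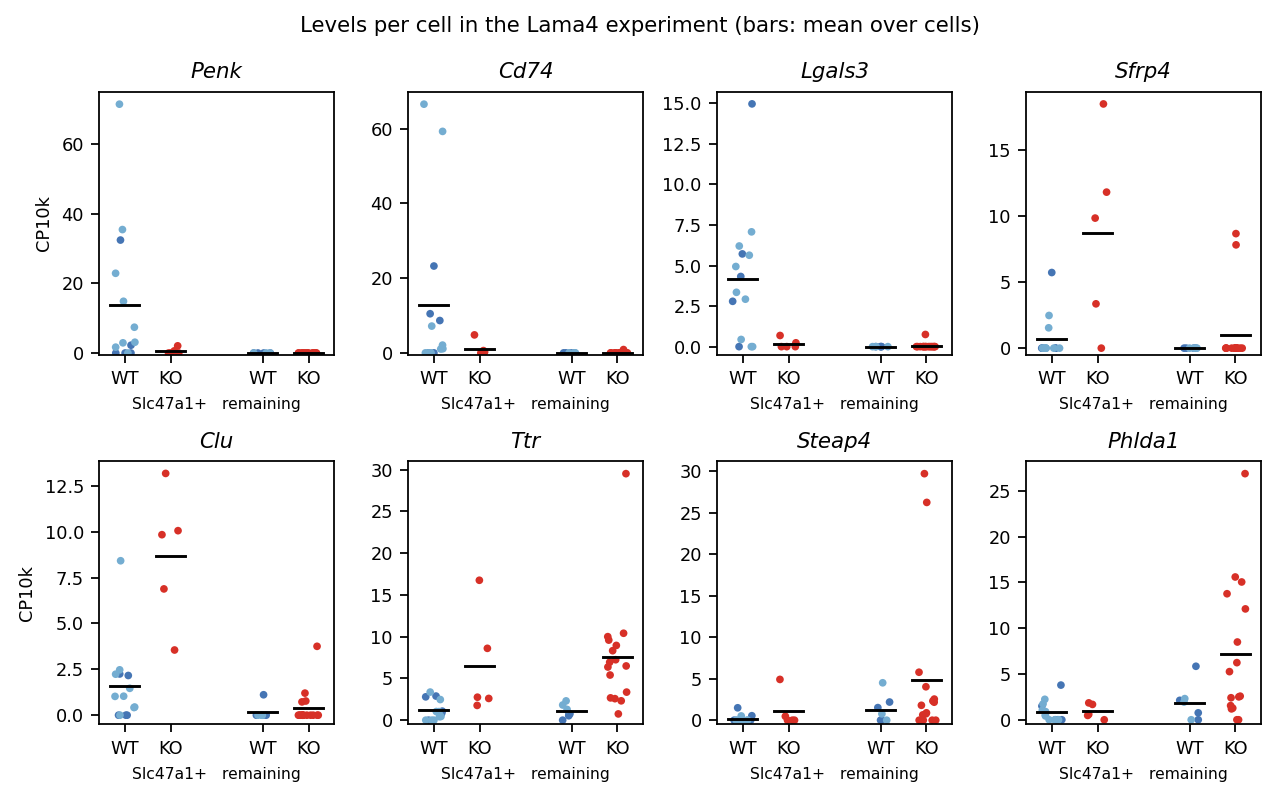
Level (CP10k, linear axes) of 8 genes in each Slc47a1-positive and each remaining fibroblast of the Lama4 experiment, WT (blue, 2 shades for 2 libraries) and Lama4 KO (red), with bars at the mean over cells. Penk, Cd74 and Lgals3 are spread over the WT Slc47a1-positive cells and near 0 in the 5 KO cells, Sfrp4 and Clu show the opposite, and Ttr is higher in KO in both sets.

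The gene lists are given for Lama4 KO against WT as counts of intervals above or below both WT intervals, beside the 2.79% higher and 4.76% lower over all genes compared. Of 7 fibrillar collagen genes compared, Col1a1 and Col1a2 of the rule among them, Col6a1 was higher and none lower. Of 10 proteoglycans Dcn and Lum, both genes of the rule, were higher and Gpc3 lower. Of the 6 basement membrane genes with enough counts none lay outside both WT intervals, with a median log2 ratio of 0.71 beside -0.06 over all genes compared. Of 10 matrix proteases and inhibitors 5 were lower, among them Timp1, Timp2 and Htra1, and 1, Timp3, was higher, with a median log2 ratio of -0.77. Growth factor genes gave 4 higher (Igfbp2, Igfbp4, Igfbp7 and Ptn) and 1 lower (Nov). Of 16 immediate early and heat shock genes Fos, Ier2 and Dusp1 were lower and Hspa1a and Hspa1b higher. These counts mix the changed make-up of the sets with levels within them, and the lists were not tested.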

How the data were processed

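Gene-by-cell matrices of raw UMI counts, deposited by the authors per sample, were used; per the labels' protocols, tissue was digested with papain and libraries were made with a 10x 3' kit. The submitters' processing notes name Cell Ranger, Seurat 3.1 and mm10. Of 8 samples 2 were identical, leaving 7 libraries, 56961 barcodes and 50254 kept cells. No doublet caller was run: the rule's limits remove some mixed cells, and alternatives remove more. Members and gene lists were chosen with earlier results of these data known.

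Counts were summed per library over members and tested with edgeR 4.0.16 in R 4.3.3 (filterByExpr, TMM, quasi-likelihood F test, Benjamini-Hochberg over all genes tested, threshold 0.05), which was tested on simulated data; DESeq2 1.42.0 was an alternative. Other values came from Python 3.11.15 with pandas 2.3.3, scipy 1.17.1 and numpy 2.4.6, and plots from matplotlib 3.10.9. Intervals are exact (95%; binomial or Poisson) and cover counting error only. A fold against a group at 0 used a floor of 3 UMIs over that group. It leaves out the counting error of the other group, so "at least" refers to that floor alone. UMIs from 3' ends are not scaled by transcript length, so levels are compared within a gene. Named genes: Lama4 and Lama5; per test up to 12 a direction with the largest fold among called genes at 50 CPM or more, or the 6 lowest p where none passed; for Lama4 KO up to 8 a direction by ratio (pseudocount 5 CPM) at 100 CPM or more; up to 30 by ratio to other cells; and list genes. A few genes that these rules name are not reported here. The genes of the 3 sets were chosen after their values were seen. Coordinates are from GENCODE on GRCm38.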

Additional observations from a re-analysis of the deposited data

How the results depend on the processing

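With so few cells, counts of genes past the threshold depended on the processing. For Lama5 KO against WT, 0 genes passed; 1 passed at 40 CP10k for the rule sum, 1 with cells of at least 1000 genes and under 10% mitochondrial UMIs, 1 with DESeq2's size factors, 4 without the Vtn limit, and 0 to 2 with a library left out. Without the Vtn limit the count was 0 to 12 with a library left out, 10 without the filter on low counts and 4 with a replicate block. For the WT groups 9 passed; the count was 0 at 40 CP10k, 5 at 10 CP10k, 443 without the Vtn limit, 52 with DESeq2, 14 with its size factors, 127 without the filter on low counts, and 0 to 160 with a library left out; 8 of the 9 were among the 160. With a replicate block (the sample number as a term) 38 genes passed between the WT groups, all 9 among them, and 0 between Lama5 KO and WT; the numbers do not mark shared mice, and with 2 of each they cannot be shown to pair libraries. For the difference from endothelial cells 0 passed; 2 did at 10 CP10k, and 0 to 2 with a library left out. The excess of fibroblasts in Lama4 KO was 0.218 percentage points, 0.166 with the stricter cells, 0.162 without the members rich in pericyte or microglial genes, and -0.0357 for Slc47a1-positive cells alone. Lama4 in Lama5 KO minus WT was 44.2 CPM, from 5 UMIs, and -80.7 without the Vtn limit. The interaction estimate for Igfbp5 ran from -4.79 to 13.62 (log2) with a library left out and turned positive without WT replicate 2 of the Lama5 experiment. The cause of these shifts was not tested. For Lama4 and Lama5, fits with DESeq2, its size factors or the block gave no value, since both genes fell under the filter. Of the alternatives run for the genes named in the WT comparison, 77 kept their side of the threshold and 24 lost it.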

Other observations

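Some gene groups not described above varied over the fibroblasts as well. The chemokine Cxcl12, which guides leukocytes and precursor cells, was detected in 55 of the 59 members, at 3.45 CP10k in the Slc47a1-positive, 10.5 in the Slc6a13-positive and 11.5 in the remaining cells. The alarmin Il33 was detected in 32 members, at 1.42, 2.32 and 2.02 CP10k in the same order. Complement C3 had no UMI in any member. Crabp2, which binds retinoic acid, was found in 11 of the 19 Slc47a1-positive cells and in 1 other member. Of the bone morphogenetic proteins, Bmp7 averaged 3.33 CP10k in the Slc6a13-positive cells, against 0.150 in the Slc47a1-positive and 0.800 in the remaining cells, and Bmp6 2.61, against 0.990 and 0.690. Ptgs2 (cyclooxygenase 2) averaged 5.90 CP10k in the remaining cells and was found in 13 of them. These are values of single sets drawn after the data were seen, with no test.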
